A study of Rattus norvegicus and Mus musculus with 61 samples.

Results

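The comparison was made between rat cortex 21 d after a fluid percussion injury and rat cortex 72 h after the same injury, and it held 6 of the 39 rat arrays in a series of 61 arrays. The arrays of each group were taken by their labels: injury 21 d (3 arrays) and injury 72 h (3 arrays). Sham arrays of the same times, sham 21 d (2 arrays) and sham 72 h (2 arrays), served only as a check. All 4 groups were male Sprague-Dawley rats under sodium pentobarbital, with 1 rat per array. Injured rats received a brief 2.5 atm fluid pressure pulse that deformed the brain beneath it, and sham rats had sham surgery. From each rat a disk of cortex 7 mm across was cut in the parieto-occipital region, which in injured rats lay over the impact and took in the contusion. The ages of the rats are not given in the sources used here, and neither is any drug treatment other than the anesthetic. Expression was read on an Affymetrix rat array with 1 deposited intensity per probe set, in arbitrary units. Intensities below 32.3 were set to 32.3, the floor, so a value of 32.3 is an upper bound.

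In the first days after a contusion, blood-borne macrophages and resident microglia are known to gather at the wound, astrocytes to become reactive, and dividing cells to appear. Over the following weeks debris is cleared and a glial scar forms around the lesion. Neurons under the impact can lose activity, synapses or cells in the acute phase, so neuronal transcripts are commonly read beside the inflammatory ones. In a tissue disk, fewer cells of a type and less RNA per cell cannot be told apart.

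The arrays shared a common scale, with a mean of 801 intensity units on every rat array after trimming 2% at each end. Median intensities were 282 to 314 in the injury 21 d arrays, 261 to 390 in the injury 72 h arrays and 257 to 320 in the 4 sham arrays. The 3 injury 21 d arrays correlated at 0.947 to 0.960 with each other (Pearson, log2 intensity), whereas the 3 injury 72 h arrays correlated at 0.833 to 0.887. Injury 72 h replicate 1 was the closest of its group to the shams by correlation, at 0.877 to 0.922 with the 4 sham arrays. Replicate 2 correlated with them at 0.811 to 0.815 and replicate 3 at 0.838 to 0.851. Replicates 2 and 3 had 5.29% and 5.89% of probe sets at the floor, against 13.1% in replicate 1. The uninjured sham 24 h arrays had 6.91% and 6.37% at the floor and median intensities of 399 and 407. Their median correlations with the other rat arrays were 0.832 and 0.819, against 0.810 and 0.843 for replicates 2 and 3. A low correlation with sham therefore does not by itself measure the response to injury. The log2 ratio of 3′ to 5′ Gapdh control signal, a measure of RNA integrity and labelling, was -0.05, 0.07 and -0.01 at injury 21 d and 0.56, -0.50 and -0.61 at injury 72 h. It was 0.08 and 0.16 at sham 21 d, 0.70 and 0.18 at sham 72 h, and -0.64 and -0.56 at sham 24 h. The same ratio for the hexokinase control was 2.29 and 2.25 at sham 72 h, the first being the highest of all rat arrays. It was 0.76 and 0.70 at sham 21 d, 0.93, 1.17 and 0.84 at injury 21 d, and 1.02, 0.57 and 0.31 at injury 72 h. The part of these array differences in the results below was not tested beyond single arrays left out and the Gapdh ratio as a covariate. With that covariate 180 genes were called, the 159 genes called below among them. No fit used the hexokinase ratio. The 4 rat arrays that stood apart from the rest, with median correlations of 0.498 to 0.780, belonged to other groups but entered the shared estimate of spread.

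Of 4089 genes tested, 159 (3.89%) differed between injured cortex at 21 d and at 72 h: 59 (1.44%) were higher at 21 d and 100 (2.45%) were lower. Genes of macrophages, reactive astrocytes and dividing cells were among the largest falls, led by the secreted phosphoprotein osteopontin (Spp1). Some genes of extracellular matrix fell as well. Genes of synapses, glutamate receptors and potassium channels were among the rises. Calls rest on limma, fitted on log2 intensities over all rat arrays, at an adjusted p (Benjamini-Hochberg) below 0.05, and each difference below is 21 d minus 72 h on the log2 scale with limma's standard error (SE). At an unadjusted p below 0.05 there were 697 genes. Among the called genes, 99 of the 100 falls and 57 of the 59 rises had no overlap between the 3 arrays at 21 d and the 3 at 72 h. Over all tested genes, 650 (15.9%) had every 21 d array below every 72 h array and 444 (10.9%) had every 21 d array above. These shares, with the 2.45% called lower and the 1.44% called higher, are the background for the list counts below.

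The number of calls depended on the arrays in the fit. Without the 4 rat arrays standing apart, 538 genes were called, 256 higher and 282 lower at 21 d, and all 159 were among them. Leaving out injury 72 h replicate 1 gave 293 calls. Leaving out injury 21 d replicate 1, 2 or 3 gave 64, 85 and 76 calls, and leaving out injury 72 h replicate 2 or 3 gave 87 and 66. With injury 72 h replicate 1 as the only array of its group, 50 genes were called, 36 higher and 14 lower, and 23 of them were among the 159. With each array centred on its median, 130 genes were called and the median difference of all genes was 0.06, against -0.06 on the deposited scale.

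The cytokine and matrix protein gene Spp1, which macrophages and microglia express in damaged brain, showed the largest fall. Its intensities were 98.7, 66.2 and 206 at injury 21 d, against 5483, 10395 and 17505 at injury 72 h, and they were 71.2 to 92.5 in the 4 sham arrays. The difference was -6.50 ± 0.59 (adjusted p = 7.49e-09). Every 72 h array lay far above every other array, and the 21 d arrays spread around the sham values. The galectin Lgals3, a lectin of phagocytes, had 265, 357 and 339 at 21 d and 2575, 3958 and 12128 at 72 h (-3.97 ± 0.49, adjusted p = 3.19e-06). Its 3 arrays at 21 d stayed above the sham range of 158 to 196, although the injury 21 d minus sham 21 d difference of 1.01 ± 0.54 was not called. Lysozyme (Lyz2), a bactericidal enzyme of myeloid cells, had 749, 797 and 585 at 21 d and 4449.9, 4002 and 9487 at 72 h (-2.97 ± 0.32, adjusted p = 2.55e-07). Its 21 d arrays spanned the sham range of 644 to 736, and no 21 d array reached the lowest 72 h array.

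Of 24 measured microglia and macrophage markers, 9 (37.5%) fell and none rose, and 15 had all 21 d arrays below all 72 h arrays. Their median difference was -1.31, against -0.06 over all genes and -0.16 for the same list between the shams. The count was 5 without injury 72 h replicate 3, 15 without the 4 rat arrays standing apart, and 2 with replicate 1 as the only injury 72 h array. Beside Lgals3 and Lyz2, the tetraspanin Cd53 of leukocytes had 188, 139 and 279 at 21 d and 951, 1549.7 and 2919 at 72 h (-3.07 ± 0.48, adjusted p = 0.000133). Cyba, a subunit of the phagocyte NADPH oxidase, had 261, 620.4 and 492 at 21 d and 1710.5, 1917 and 5126 at 72 h (-2.57 ± 0.47, adjusted p = 0.00104). In both genes the groups were fully apart. Cyba at 21 d was still above its sham 21 d values of 133 and 194 in all 3 arrays, with a difference from sham of 1.42 ± 0.52 that reached only an unadjusted p of 0.0107. Its sham 72 h arrays had 168 and 320, the second above the lowest injury 21 d array. Cathepsin L (Ctsl), a lysosomal protease, had 1480.4, 1801 and 1918 at 21 d and 3422, 3859 and 8967 at 72 h (-1.51 ± 0.32, adjusted p = 0.00462). Its 21 d arrays lay within or below the sham range of 1621 to 2088. The other Ctsl probe set overlapped between the times, with 1049, 1045 and 939 at 21 d and 1078, 892 and 1794 at 72 h, and did not pass (-0.25 ± 0.30, adjusted p = 0.73). The other called members were the microglial calcium-binding gene Aif1 (-1.83 ± 0.42), the lysosomal protease Ctsc (-2.63 ± 0.59), the Fc receptor Fcgr2b (-2.01 ± 0.52) and the platelet and leukocyte gene Plek (-2.78 ± 0.68). The lysosomal membrane gene Cd63, 3277, 2239.5 and 3265 at 21 d against 9333, 5723 and 12073 at 72 h, did not pass the test (-1.58 ± 0.74, adjusted p = 0.266) though its arrays did not overlap.

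**Figure D1:**
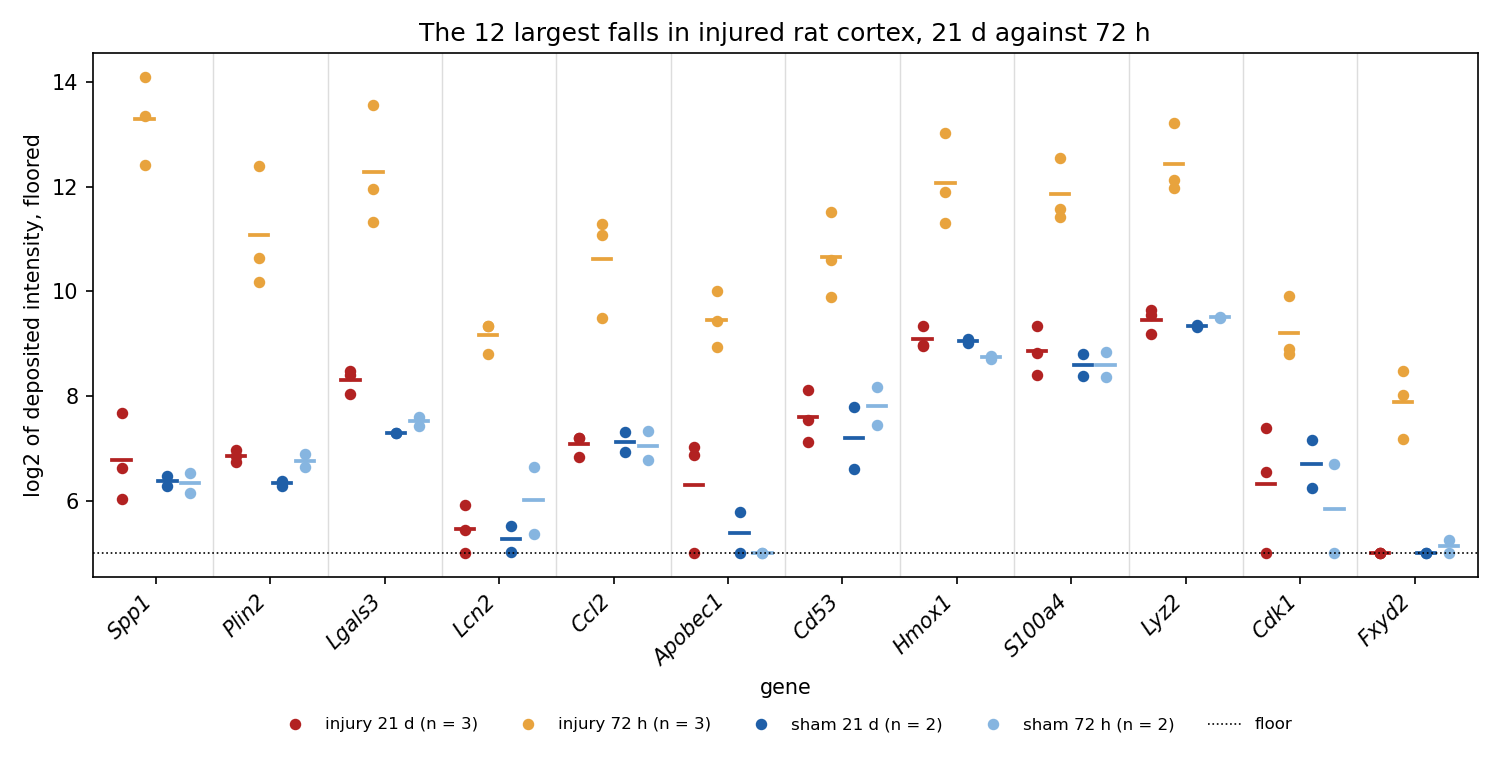
The 12 largest falls that were called, at least 2-fold and free of overlap, with 1 point per array and a bar at each group mean, on the log2 scale of the deposited intensity (vertical axis) by gene (horizontal axis). Every orange point (injury 72 h) lies above every red point (injury 21 d) of its gene, and the sham points (blue) lie near the red ones. The dotted line is the floor of 32.3 intensity units.

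Lipid handling genes were among the largest falls. Plin2 (perilipin 2), which coats lipid droplets, had 108, 117 and 126 at 21 d and 1159.6, 1592 and 5389.9 at 72 h (-4.21 ± 0.57, adjusted p = 1.49e-05). Its 21 d arrays overlapped the sham range of 78.0 to 119. Fabp5, a fatty acid binding protein, had 2013, 2504 and 2217 at 21 d and 5930.2, 6026 and 12470.0 at 72 h (-1.77 ± 0.25, adjusted p = 3.02e-05), and its 4 sham arrays had 2018 to 2531. The mRNA-editing enzyme Apobec1, known for its action on apolipoprotein B mRNA, was at the floor of 32.3 on 3 of 4 sham arrays and on 1 array at 21 d. It had 32.3, 118 and 131 at 21 d and 492, 697 and 1027 at 72 h (-3.16 ± 0.47, adjusted p = 6.17e-05). Apobec1 passed the filter on low values only through the 72 h arrays, where it was high, and with no filter its adjusted p was 7.14e-06. All 3 of these genes had their 21 d arrays entirely below their 72 h arrays. Of 21 measured lipid transport and storage genes, 4 fell (Anxa2, Fabp5, Fabp7 and Plin2) and Apoe rose, and the list's median difference was -0.23, against -0.27 between the shams.

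Apoe, the main lipid carrier of astrocytes, was read by probe sets that disagreed. The one with the higher mean over all rat arrays had 18002, 24664 and 13522 at 21 d and 11877, 4104 and 156 at 72 h (3.21 ± 0.83, adjusted p = 0.0205), so 1 array at 72 h lay far below its 2 group mates. The other Apoe probe set gave a difference of 0.06 ± 0.61, with 14732, 20465 and 15545 at 21 d and 17238, 13616 and 17607 at 72 h, and did not pass the test. The rise of Apoe therefore held for 1 of its 2 probe sets, and under quantile normalization, where the other was used, the difference was -0.22.

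Reactive astrocytes are known for a shift in filament, annexin and secreted protein genes. Of 26 measured reactive astrocyte markers, 9 (34.6%) fell and none rose, 18 had no overlap in that direction, and the median difference was -1.33, against -0.02 between the shams. The count was 15 without the 4 rat arrays standing apart and 3 with replicate 1 as the only injury 72 h array. Vimentin (Vim), an intermediate filament of reactive astrocytes and of other cells, had 1051, 1747 and 2416 at 21 d and 9895, 7187 and 10241 at 72 h (-2.45 ± 0.40, adjusted p = 0.000208). Lipocalin 2 (Lcn2), an iron-carrier binding protein released by astrocytes and neutrophils, had 32.3, 44.0 and 60.8 at 21 d and 651, 449 and 653 at 72 h (-3.70 ± 0.49, adjusted p = 1.01e-05). The annexin A2 partner S100a10 had 503, 798 and 452 at 21 d and 2532, 2420.4 and 4476 at 72 h (-2.41 ± 0.40, adjusted p = 0.000208). In all 3 genes each 72 h array was above each array at 21 d, and Lcn2 was within the sham range of 32.9 to 101 at 21 d or at the floor. The metalloprotease inhibitor Timp1 had 729, 1326 and 951 at 21 d and 2826, 4191 and 5284 at 72 h (-2.03 ± 0.34, adjusted p = 0.000249), and its other probe set fell by 5.24. The small heat shock protein gene Hspb1 had 1604, 1663 and 1612 at 21 d and 4057, 6359 and 7713 at 72 h (-1.84 ± 0.34, adjusted p = 0.00126). The sham difference had the same sign, with 1021 and 1127 at sham 21 d and 2350.0 and 2025 at sham 72 h (-1.02 ± 0.42, not called). Of the other 3 Hspb1 probe sets, 2 fell and 1 differed by 0.80 without passing the test. The phospholipid-binding genes Anxa1 (-2.10 ± 0.43) and Anxa2 (-2.20 ± 0.35), the mitochondrial translocator protein gene Tspo (-1.77 ± 0.40) and the radial glial fatty acid binding gene Fabp7 (-2.12 ± 0.53) were the other called members. Cd44, the hyaluronan receptor, had 202, 186 and 265 at 21 d and 375, 906 and 1370.0 at 72 h without passing the test (-1.85 ± 0.59, adjusted p = 0.0713).

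Markers of the cell types in the disk differed between the groups as follows. Summed over Aif1, Ctss and C1qb, the intensity of microglia and macrophage markers was 9264 to 12200 at injury 21 d, 14200 to 18760 at injury 72 h, 6277 to 6767 at sham 21 d and 8300 to 9528 at sham 72 h. Summed over Snap25, Camk2a, Nrgn and Gad1, the neuronal markers had 24570 to 25640 at injury 21 d, 9133 to 19270 at injury 72 h, 29530 to 30340 at sham 21 d and 27760 to 31810 at sham 72 h. The neutrophil markers S100a8 and S100a9 summed to 106 to 160 at injury 21 d, 188 to 916 at injury 72 h, 64.6 to 82.7 at sham 21 d and 97.1 to 156 at sham 72 h. The astrocyte sum (Slc1a2, Slc1a3, Aqp4 and Glul) overlapped, with 19460 to 23780 at injury 21 d, 21780 to 25970 at injury 72 h, 22570 to 24760 at sham 21 d and 18010 to 19470 at sham 72 h. The oligodendrocyte sum (Mbp, Mag, Mobp and Cnp) overlapped between the injury times, with 29100 to 40630 at injury 21 d, 22620 to 31190 at injury 72 h, 41700 to 43290 at sham 21 d and 38430 to 40340 at sham 72 h. The striatal sum (Drd2, Adora2a and Penk) did not, with 2180 to 2384 at injury 21 d, 1581 to 1896 at injury 72 h, 1941 to 2473 at sham 21 d and 2343 to 3657 at sham 72 h. The red cell sum (Hbb and Alas2) was 10770 to 25510 at injury 21 d, 10400 to 12390 at injury 72 h, 10530 to 10760 at sham 21 d and 7798 to 10640 at sham 72 h. None of the markers of these cell types that were measured was at the floor on all 10 arrays. Markers of choroid plexus, a tissue outside the cortex, ranged in sum from 903 to 1507 at injury 21 d, 413 to 5741 at injury 72 h, 752 to 18420 at sham 21 d and 5759 to 32730 at sham 72 h, most of it the transthyretin gene Ttr. The part of cell composition in the gene differences was not tested. The astrocyte marker Gfap and the macrophage marker Cd68 were not analysed here.

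Cytokine genes contributed 4 falls (20%) and 1 rise (5%) among 20 measured, with a median difference of -0.73, against -0.04 between the shams. The monocyte-attracting chemokine Ccl2 had 147, 115 and 148 at 21 d and 723, 2152 and 2512 at 72 h (-3.54 ± 0.68, adjusted p = 0.00186), and a second probe set fell by 3.54 as well. At 21 d its arrays were within the sham range of 110.0 to 162. Interleukin 18 (Il18), which the inflammasome activates, had 209, 296 and 292 at 21 d and 509, 792 and 1031 at 72 h (-1.51 ± 0.44, adjusted p = 0.0425). Tnfsf13, a B cell survival factor, had 1064, 719 and 1092 at 21 d and 1580.1, 2819 and 2894 at 72 h (-1.32 ± 0.32, adjusted p = 0.0128). For Ccl2, Il18 and Tnfsf13 the arrays of the times did not overlap, but another Tnfsf13 probe set differed by 1.09 in the opposite direction without passing the test. The rise was Cx3cl1, the chemokine that neurons present to microglia (1.02 ± 0.30, adjusted p = 0.0497). Il1b, an early inflammatory cytokine, had 173, 221 and 139 at 21 d and 222, 528 and 236 at 72 h and did not pass (-0.79 ± 0.48, adjusted p = 0.412).

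Complement and antigen presentation genes were lower at 21 d in part. C1qb, a chain of the first complement component, had 732, 1694 and 1926 at 21 d and 6700.5, 5881 and 5995 at 72 h (-2.21 ± 0.52, adjusted p = 0.0111). The anaphylatoxin receptor C3ar1 had 66.3, 32.3 and 46.5 at 21 d and 218, 283 and 214 at 72 h (-2.35 ± 0.63, adjusted p = 0.0274). These were the 2 called genes (16.7%) of 12 complement genes measured, and in both the 21 d arrays lay below the 72 h arrays. C3 itself overlapped, with 198, 293 and 457 at 21 d and 542, 413 and 38.0 at 72 h. Of 19 antigen presentation genes, 3 (15.8%) fell, all of the class II pathway: RT1-Da (-1.46 ± 0.40, adjusted p = 0.0301), RT1-Db1 (-1.65 ± 0.33, adjusted p = 0.00318) and RT1-DMb (-1.77 ± 0.38, adjusted p = 0.00462). The 3 arrays of RT1-Da at 21 d, 746, 1129.8 and 1827, spread more than 2-fold and included 2 above the sham range of 506 to 764. Cd74, the class II invariant chain, overlapped between the times, with 389, 1042 and 1120.5 at 21 d and 1558, 895 and 1829 at 72 h, and did not pass (-0.83 ± 0.46, adjusted p = 0.363). It had 180.4 and 362 at sham 21 d, so the injury 21 d minus sham 21 d difference was 1.59 ± 0.52 (unadjusted p = 0.00433, not called after adjustment). The class I light chain B2m had 3683, 4587 and 4613 at 21 d and 6618, 5156 and 7554 at 72 h (-0.58 ± 0.27, adjusted p = 0.258).

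Some matrix and protease genes fell as well. Of 29 fibroblast and matrix genes, 5 fell and none rose, with a median difference of -0.69. The count was 1 without injury 72 h replicate 3, 10 without injury 72 h replicate 1, and 0 with replicate 1 as the only injury 72 h array. The calcium-binding gene S100a4, known from fibroblasts and leukocytes, had 342, 455 and 653 at 21 d and 3046, 2749 and 6011 at 72 h (-2.98 ± 0.53, adjusted p = 0.000786). The galectin Lgals1 had 884, 1192 and 924 at 21 d and 5240.0, 2852 and 11976 at 72 h (-2.51 ± 0.53, adjusted p = 0.00452). Matrix Gla protein (Mgp), an inhibitor of calcification, had 811, 698 and 755 at 21 d and 1865, 2545 and 3677 at 72 h (-1.78 ± 0.38, adjusted p = 0.00452). In these 3 genes the times did not overlap and the 21 d means lay near or within the sham ranges. The smooth muscle gene Tagln (-1.47 ± 0.38) was also called, as was fibronectin (Fn1; -1.48 ± 0.38, adjusted p = 0.0196). The other 2 Fn1 probe sets overlapped between the times and did not pass (-0.47 and -0.25), and with probe sets averaged Fn1 was not called (-0.74, adjusted p = 0.416). The fibrillar collagens did not pass: Col1a1 had 1207, 3536 and 2299 at 21 d and 3799, 4289 and 5682 at 72 h (-1.08 ± 0.56), and Col3a1 had 593, 660.2 and 588 at 21 d and 568, 1150.4 and 1145 at 72 h (-0.57 ± 0.32). Of 31 proteases and inhibitors, 5 (16.1%) fell: Ctsl and Timp1 above, the macrophage elastase Mmp12 (-1.72 ± 0.43), the membrane-bound metalloprotease Mmp14 (-1.45 ± 0.32) and the inhibitor Timp2 (-1.17 ± 0.28). The progranulin gene Grn, a lysosomal growth factor abundant in microglia, had 2169, 1999 and 1972 at 21 d and 8116, 7048 and 8159 at 72 h (-1.92 ± 0.30, adjusted p = 0.00013). Its 72 h arrays lay close together and stood above every 21 d and sham array, the shams being at 1912 to 2389.

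Oxidative stress genes were called in 3 of 24 cases (12.5%), all falls, against falls in 2.45% of all genes. Heme oxygenase 1 (Hmox1), which breaks down heme, had 502, 649 and 498 at 21 d and 2539.6, 3796 and 8375 at 72 h (-2.99 ± 0.42, adjusted p = 3.02e-05), and its other probe set fell by 4.58. The 21 d arrays overlapped the sham range of 419.6 to 545. The quinone reductase Nqo1 had 512, 578 and 403 at 21 d and 928, 1262 and 1229.5 at 72 h (-1.20 ± 0.32, adjusted p = 0.0244). The peroxiredoxin Prdx1 had 1661, 1702 and 1597 at 21 d and 3132, 2583 and 5538 at 72 h (-1.10 ± 0.32, adjusted p = 0.0444). In all 3 genes the times were apart, and the list's median difference of -0.08 was near that of all genes and changed sign with each array centred on its median. Fxyd2, a regulator of the sodium pump best known from kidney, was at the floor on all 3 arrays at 21 d and had 146, 358 and 260.0 at 72 h. That made it at least 7.39-fold lower at 21 d (adjusted p = 0.00334).

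Cell cycle genes fell in 7 of 27 measured cases (25.9%) and rose in none, with a median difference of -0.64, against 0.18 between the shams. The count was 3 without injury 21 d replicate 1 or 3 or without injury 72 h replicate 3, 4 with each array centred on its median, and 0 with replicate 1 as the only injury 72 h array. DNA topoisomerase 2 alpha (Top2a), which untangles replicated chromosomes, had 234, 197 and 193 at 21 d and 799, 1338 and 1811 at 72 h (-2.59 ± 0.42, adjusted p = 0.000176). The mitotic kinase Cdk1 had 168, 93.7 and 32.3 at 21 d, the last at the floor, and 477, 451 and 959 at 72 h (-2.89 ± 0.61, adjusted p = 0.00452). Cdk1 too passed the filter only through the 72 h arrays, and with no filter its adjusted p was 0.00406. Mcm6, a subunit of the replication helicase, had 300.5, 324 and 304 at 21 d and 817, 806 and 1654 at 72 h (-1.73 ± 0.33, adjusted p = 0.00137). These 3 genes had no overlap, and the 4 sham arrays had 156 to 270.3 for Top2a, 32.3 to 143 for Cdk1 and 306 to 349.8 for Mcm6. The chromosomal passenger kinase Aurkb had 32.3, 32.3 and 40.03 at 21 d and 184, 157 and 264 at 72 h (-2.51 ± 0.59, adjusted p = 0.0117), beside a sham difference of -1.51 ± 0.73 (not called). With the floor at the 25th percentile Aurkb was not called between the injury times (-1.07, adjusted p = 0.137). The remaining calls were the helicase subunit Mcm5 (-2.16 ± 0.64), the polymerase clamp Pcna (-1.14 ± 0.30) and the histone variant H2az1 (-1.42 ± 0.41). The cyclin D1 gene Ccnd1 did not pass on its brightest probe set (-0.92 ± 0.34, adjusted p = 0.13), and 1 of its other 4 probe sets did (-1.43). The other Top2a probe sets differed by -2.32 and -0.22, and neither passed.

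The promoters of the cell cycle genes are shown because these genes fell together, and CCAAT boxes and CHR elements (cell cycle genes homology region) are known features of promoters of mitotic genes. RefSeq promoter sequences (GRCr8, 250 bases before to 50 after the annotated start, in the direction of transcription) matched 6 of the 7 called cell cycle genes by gene ID. Capitals mark every match, on either strand, to the TATA box (letters TATAAA), the CCAAT box, the GC box (letters GGGCGG), the AP-1 site (letters TGANTCA) or the CHR element (letters TTTGAA). No base in these promoters lay in matches to more than 1 of the motifs. The CCAAT box was present in 6 of 6 matched promoters, with 4 matches in Top2a, 3 in Cdk1, 3 in Mcm5, 3 in H2az1, 2 in Mcm6 and 1 in Pcna, and in 37.5% of all 33469 promoters of the same length. The CHR letters were in 3 of 6 (Top2a, Cdk1 and H2az1), against 18.3% of all promoters. The GC box was in 5 of 6, against 33.1%, the TATA box in 1 of 6, against 14.2%, and the AP-1 site in 0 of 6, against 7.33%. These are matches of letters and not sites. The promoters of 3 of these genes follow.
Top2a, chr10:84473044-84473343 (- strand): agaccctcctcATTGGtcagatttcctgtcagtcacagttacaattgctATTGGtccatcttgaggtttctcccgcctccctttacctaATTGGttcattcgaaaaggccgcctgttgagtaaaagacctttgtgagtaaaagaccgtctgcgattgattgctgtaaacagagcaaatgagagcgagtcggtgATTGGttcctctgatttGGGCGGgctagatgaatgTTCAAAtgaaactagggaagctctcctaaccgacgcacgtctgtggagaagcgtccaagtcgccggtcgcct
Cdk1, chr20:19265043-19265342 (+ strand): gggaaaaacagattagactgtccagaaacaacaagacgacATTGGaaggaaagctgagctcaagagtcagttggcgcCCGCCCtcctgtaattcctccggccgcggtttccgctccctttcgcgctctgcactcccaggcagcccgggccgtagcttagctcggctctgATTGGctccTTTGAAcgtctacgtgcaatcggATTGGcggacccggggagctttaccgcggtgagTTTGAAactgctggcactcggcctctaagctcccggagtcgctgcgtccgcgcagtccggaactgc
Mcm5, chr19:13488563-13488862 (+ strand): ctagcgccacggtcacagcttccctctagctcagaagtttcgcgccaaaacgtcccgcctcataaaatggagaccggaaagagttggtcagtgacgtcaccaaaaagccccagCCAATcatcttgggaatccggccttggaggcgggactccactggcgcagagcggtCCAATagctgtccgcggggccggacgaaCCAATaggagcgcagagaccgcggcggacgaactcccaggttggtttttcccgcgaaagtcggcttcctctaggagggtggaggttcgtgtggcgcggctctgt

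Among the rises, neuronal and synaptic genes were called in 8 of 52 measured cases (15.4%), and none fell. Of the 52, 49 had a difference above 0, the median difference was 0.77, and the same list had a median of 0.00 between the shams. The count was 1 without injury 21 d replicate 3 or injury 72 h replicate 3, 14 without injury 72 h replicate 1, and 29 without the 4 rat arrays standing apart. Vamp1, a synaptic vesicle fusion protein, had 2526, 1945 and 2112 at 21 d and 225, 669 and 638 at 72 h (2.25 ± 0.35, adjusted p = 0.00013). The times were far apart, but the sham difference had the same sign, with 2643 and 2538 at sham 21 d and 884 and 719 at sham 72 h (1.70 ± 0.43, not called). The difference between the injury effects of Vamp1 was 0.55 ± 0.56 (adjusted p = 0.884). Vsnl1, a neuronal calcium sensor, had 5720.3, 5036 and 6810.5 at 21 d and 1998, 2165 and 756 at 72 h (1.97 ± 0.51, adjusted p = 0.0219). Complexin 2 (Cplx2), which clamps vesicle fusion, had 1179, 1228 and 1392 at 21 d and 471, 631 and 489 at 72 h (1.27 ± 0.30, adjusted p = 0.0122). For both, each 21 d array was above each 72 h array. The Cplx2 shams differed in the same direction, with 1574.5 and 1206 at sham 21 d and 790 and 725 at sham 72 h (0.87 ± 0.37, not called). Itpka, a kinase of dendritic spines, had 1395, 2584 and 1953 at 21 d and 1591, 127 and 42.7 at 72 h (3.22 ± 0.78, adjusted p = 0.0137). Its groups overlapped, because 1 array at 72 h, replicate 1, was as high as the 21 d arrays. With replicate 1 as the only injury 72 h array, the Itpka difference was 0.27. Homer1, a scaffold of the postsynaptic density, had 2327, 3122 and 2793 at 21 d and 1601, 954 and 479.9 at 72 h (1.60 ± 0.44, adjusted p = 0.03). The sham difference had the opposite sign, with 814 and 1057 at sham 21 d and 2956 and 1674 at sham 72 h (-1.26 ± 0.53, not called). Homer1 was also the 1 called gene of 29 measured (3.45%) in the list of immediate early and stress transcription factors. The Homer1 values above are from 1 of 6 probe sets. The other 5 differed by 0.41 to 1.66 between the injury times, and 1 of them was called (1.09, adjusted p = 0.0457). Between the shams, 2 of the 5 had both 21 d arrays above both 72 h arrays and 1 had both below.

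The neurofilament gene Nefm (1.40 ± 0.38), the protein kinase Prkcb (1.17 ± 0.31) and the vesicle protein synapsin 2, Syn2 (1.36 ± 0.40), completed the called synaptic genes. The fusion protein Snap25 had 9110.4, 8142 and 10938 at 21 d and 5996, 4264 and 1762 at 72 h, with no overlap, and did not pass (1.39 ± 0.59, adjusted p = 0.207). Another Snap25 probe set passed at 1.46. The 4 sham arrays, at 11013 to 12911, were all above the injury 21 d arrays. Camk2a, the synaptic plasticity kinase of excitatory neurons, had 292, 360.2 and 373 at 21 d and 39.0, 129 and 73.3 at 72 h (2.24 ± 0.72, adjusted p = 0.0761), and its other probe set passed at 2.22. Genes of inhibitory neurons were measured too: Gad1, which makes GABA, had 3102, 2628 and 2996 at 21 d and 2963, 2350.5 and 2156 at 72 h (0.23 ± 0.25), and somatostatin (Sst) had 5019, 5417 and 6447 at 21 d and 7634, 5148 and 4582 at 72 h (-0.01 ± 0.27). Both overlapped, and neither passed. The neuropeptide galanin (Gal) was the 1 called gene of 24 in that list and it fell, with 49.2, 54.4 and 50.5 at 21 d and 80.3, 535 and 692 at 72 h (-2.59 ± 0.72, adjusted p = 0.0328).

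**Figure D2:**
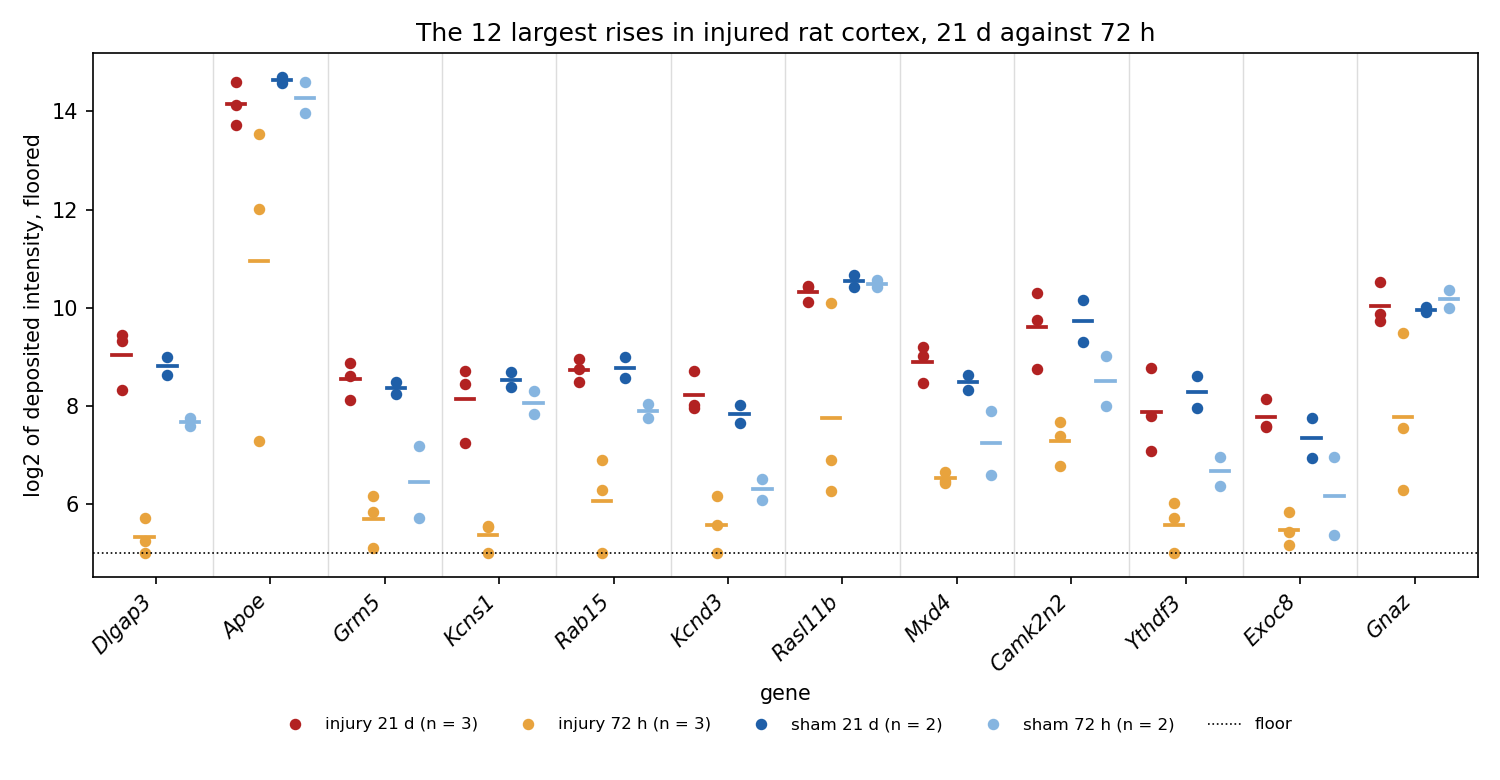
The 12 largest rises that were called, at least 2-fold and free of overlap, with 1 point per array and a bar at each group mean, on the log2 scale of the deposited intensity (vertical axis) by gene (horizontal axis). Every red point (injury 21 d) lies above every orange point (injury 72 h) of its gene, and for several genes the pale blue points (sham 72 h) lie below the dark blue ones (sham 21 d). The dotted line is the floor of 32.3 intensity units.

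Glutamate and GABA receptor genes rose in 4 of 36 measured cases (11.1%) and fell in none, with a median difference of 0.59, against 0.34 between the shams. The metabotropic receptor Grm3, found on glia and neurons, had 4156, 5332 and 3924 at 21 d and 1604, 1468 and 1275 at 72 h (1.62 ± 0.30, adjusted p = 0.0011). The AMPA receptor subunit Gria3 had 967, 487 and 779 at 21 d and 202, 331 and 221 at 72 h (1.54 ± 0.33, adjusted p = 0.00462). Grm5, a metabotropic receptor coupled to calcium release, had 281, 473 and 392 at 21 d and 34.4, 72.3 and 57.3 at 72 h (2.84 ± 0.69, adjusted p = 0.0135). None of the 3 overlapped, and the sham 21 d arrays of Grm5 (359 and 303) were also above its sham 72 h arrays (52.8 and 146). The same held between the shams for Grm3 (4428 and 4668 against 2658 and 2703) and Gria3 (532 and 631 against 318 and 475). The GABA-A receptor subunit Gabra4 was the other called gene, with 903, 876 and 760.0 at 21 d and 455, 112 and 382 at 72 h (1.65 ± 0.44, adjusted p = 0.0265). Its shams differed in the same direction, with 759 and 784 at sham 21 d and 428 and 569 at sham 72 h (0.64 ± 0.54, not called). Of 39 voltage-gated channel genes, 2 potassium channels (5.13%) rose: Kcnd3 (2.64 ± 0.50, adjusted p = 0.00151) and Kcna1 (1.17 ± 0.32, adjusted p = 0.0328). The Kcna1 sham difference was 0.84 ± 0.40 (not called). Kcnd3, which carries the fast transient current, had 261, 248 and 419.8 at 21 d and 32.3, 72.2 and 47.6 at 72 h, the first of these at the floor, with 201 and 259.5 at sham 21 d and 68.2 and 91.8 at sham 72 h. Its other probe set overlapped between the times, with 222, 113 and 139 at 21 d and 52.3, 278 and 86.5 at 72 h, and did not pass (0.49 ± 0.64, adjusted p = 0.757).

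The largest rises also included genes outside these lists. The postsynaptic scaffold Dlgap3 had 319, 701 and 639.6 at 21 d and 32.3, 38.2 and 52.7 at 72 h (3.70 ± 0.97, adjusted p = 0.0232). Dlgap3 lost its call without injury 21 d replicate 1, 2 or 3 (adjusted p = 0.0511, 0.0979 and 0.100). It also lost it without injury 72 h replicate 2 or 3 (adjusted p = 0.0761 and 0.0606). The silent potassium channel subunit Kcns1 had 348, 153 and 419 at 21 d and 47.3, 32.3 and 46.5 at 72 h (2.77 ± 0.63, adjusted p = 0.00894), and its sham arrays had 228 to 413. With the floor at the 25th percentile Kcns1 was not called (1.58, adjusted p = 0.121). Camk2n2, an inhibitor of the kinase CaMKII, had 435, 1257 and 862 at 21 d and 109, 169 and 205 at 72 h (2.32 ± 0.49, adjusted p = 0.00452). In these 3 genes the times did not overlap. Between the shams Dlgap3 differed by 1.15 ± 1.19, Kcns1 by 0.47 ± 0.78 and Camk2n2 by 1.23 ± 0.60, none of them called. The G protein subunit Gnaz (2.27 ± 0.49) and the small GTPases Rab15 (2.66 ± 0.63) and Rasl11b (2.57 ± 0.63) rose too. Rasl11b had 1094, 120.4 and 77.1 at 72 h, so 2 arrays lay far below the third. Gnaz was split in the same way, with 713, 78.6 and 187 at 72 h. It missed the threshold without replicate 2 (1.53, adjusted p = 0.0820) and with replicate 1 as the only injury 72 h array (0.57, adjusted p = 0.983). Its other probe set did not pass (1.05, adjusted p = 0.306). Rasl11b missed the threshold without injury 72 h replicate 2 (2.15, adjusted p = 0.0993) or 3 (1.83, adjusted p = 0.175). With replicate 1 as the only injury 72 h array, the Rasl11b difference was 0.23. The striatal and cortical phosphodiesterase Pde1b had 1597, 1946 and 1866 at 21 d and 128, 1127 and 823 at 72 h (1.87 ± 0.52, adjusted p = 0.0321). Its sham difference was 1.20 ± 0.63 (not called). Without injury 72 h replicate 1 Pde1b missed the threshold (0.90, adjusted p = 0.224). The sterol methyl oxidase Msmo1 was the called gene of 16 in cholesterol synthesis, with 4519, 4040.4 and 3985 at 21 d and 2242, 2006 and 1851 at 72 h (1.04 ± 0.27, adjusted p = 0.0224). Its shams had 4184 to 4747, so its 72 h arrays alone stood apart. Caveolin 1 (Cav1), of endothelial caveolae, was the called gene of 22 in the endothelial list (2.00 ± 0.59, adjusted p = 0.0495), beside a sham difference of 2.07 ± 0.72 (not called).

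No gene was called between sham 21 d and sham 72 h in limma (0%), where the smallest adjusted p was 0.333 and 258 genes had an unadjusted p below 0.05. Without the 4 rat arrays standing apart 3 genes were called there, and without sham 72 h replicate 2 there was 1. The sham groups held 2 arrays each, so this count does not show that the shams were alike. Among the 100 falls the median sham difference was -0.21, and 8 genes had a sham difference of at least 50% of the injury difference. Among the 59 rises the median sham difference was 0.60, and 20 genes had such a sham difference. The rises thus had larger sham differences in the same direction than the falls, relative to a median of 0.00 over all genes.

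The test of the difference between the injury effects, (injury 21 d minus sham 21 d) minus (injury 72 h minus sham 72 h), called 7 genes (0.171%), 6 lower (0.147%) and 1 higher (0.0245%), with 294 at an unadjusted p below 0.05. The 6 with a lower effect at 21 d were Spp1 (-6.54 ± 0.94, adjusted p = 0.000247), Lyz2 (-2.80 ± 0.51, adjusted p = 0.00845), Lgals3 (-3.76 ± 0.77, adjusted p = 0.0226), Hmox1 (-3.30 ± 0.67, adjusted p = 0.0226), Top2a (-3.29 ± 0.66, adjusted p = 0.0226) and Apobec1 (-3.54 ± 0.74, adjusted p = 0.0245, or 0.00641 with no filter). All 6 were also falls between the injury groups. The exception was Lsamp, a cell adhesion molecule of limbic neurons, at 4.56 ± 0.98 (adjusted p = 0.0328). Lsamp had 381, 654 and 371 at injury 21 d, 82.0, 65.8 and 169.8 at injury 72 h, 79.5 and 73.9 at sham 21 d and 306 and 490.0 at sham 72 h. The sham and injury differences thus had opposite signs, and the sham arrays of 21 d were as low as the injured arrays of 72 h. Spp1 stayed called in every alternative but the one with a single injury 72 h array (adjusted p = 0.0640). Leaving out any 1 sham array left only Spp1 called, and without the 4 arrays standing apart there were 28 calls. With probe sets averaged Top2a was not called in this test (-2.02, adjusted p = 0.460).

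Against time-matched shams, no gene was called at 21 d in limma (0%), with 50 genes (1.22%) at an unadjusted p below 0.05 and a smallest adjusted p of 1. No alternative gave a call at 21 d. The 1.22% is below the share that a threshold of 0.05 gives where no gene differs. The shared spread took in the 4 arrays standing apart. Without them 126 genes had an unadjusted p below 0.05, and with only the 10 arrays 111 did. The absence of calls therefore does not show a return to sham. At 72 h 113 genes (2.76%) were called, 86 higher (2.1%) and 27 lower (0.66%) in injured cortex. Each of these comparisons shares its injury arrays with injury 21 d minus injury 72 h, and 3 arrays against 2 leave small differences undetectable. The 100 genes that fell had a median difference from sham of 0.06 at 21 d and 1.69 at 72 h. For the 59 that rose it was -0.06 at 21 d and -1.18 at 72 h. The mean at injury 21 d lay within the range of the 4 sham arrays for 72 of the 100 falls, above it for 16 and below it for 12. Of the 59 rises, it lay within for 44, above for 11 and below for 4. By the stricter measure of every array, 90 (2.2%) of all tested genes had each injury 21 d array above all 4 shams. Another 118 (2.89%) had each one below. No share over all tested genes is given for the position of the mean. The counts of 72 and 44 therefore have no background and do not by themselves show a return to sham. The injury arrays that chose the falls and rises enter both differences from sham. The medians and counts therefore describe these genes and are no separate test.

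**Figure D3:**
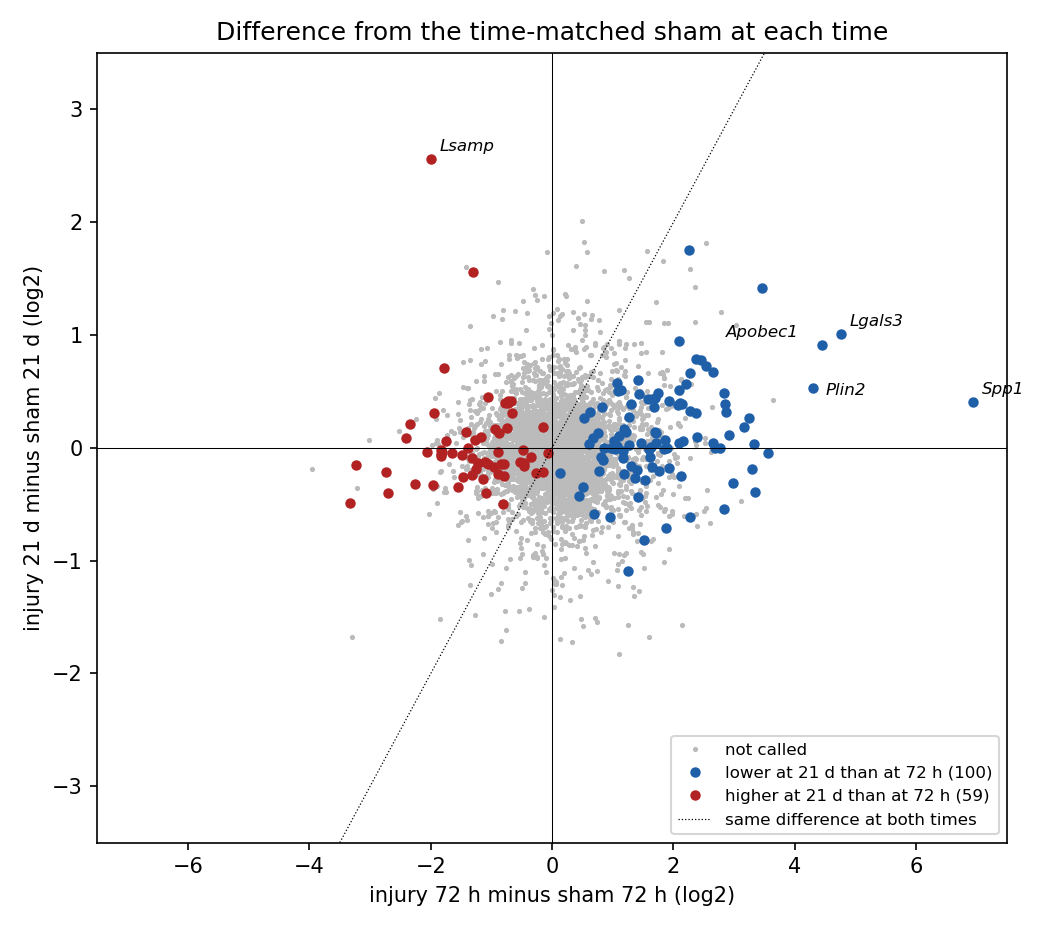
Difference from the time-matched sham for each of 4089 genes, in log2 units, with injury 21 d minus sham 21 d on the vertical axis and injury 72 h minus sham 72 h on the horizontal axis, drawn on unequal scales. The differences run from -1.82 to 2.56 at 21 d and from -3.96 to 6.94 at 72 h. The 100 genes lower at 21 d (blue) spread to the right and the 59 higher at 21 d (red) to the left, mostly near 0 on the vertical axis, with Lsamp the red point highest on it.

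Among the 96 genes named by rule, those with an unadjusted p below 0.05 against sham at 21 d were Lsamp, Homer1, Cd74, Fos, Cyba, RT1-Da and Slc4a1, none of them called after adjustment. Lsamp differed by 2.56 ± 0.70 (unadjusted p = 0.000837), Homer1, on the probe set used, by 1.56 ± 0.49 (unadjusted p = 0.00315) and the class II gene RT1-Da by 0.94 ± 0.45 (unadjusted p = 0.0421). On the other 5 Homer1 probe sets the injury 21 d and sham 21 d arrays overlapped. The red cell anion exchanger Slc4a1 differed by -0.62 ± 0.30 (unadjusted p = 0.0454), and Cd74 and Cyba by the values above. The immediate early gene Fos had 2251, 1678 and 1268 at injury 21 d, 2588, 1886 and 1918 at injury 72 h, 4157 and 3339 at sham 21 d and 1822 and 1283 at sham 72 h. Its difference from sham at 21 d was -1.14 ± 0.42 (unadjusted p = 0.0106), with the sham 21 d arrays the highest of the 10. Between the injury times Fos overlapped and did not pass (-0.32 ± 0.38, adjusted p = 0.721).

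**Figure D4:**
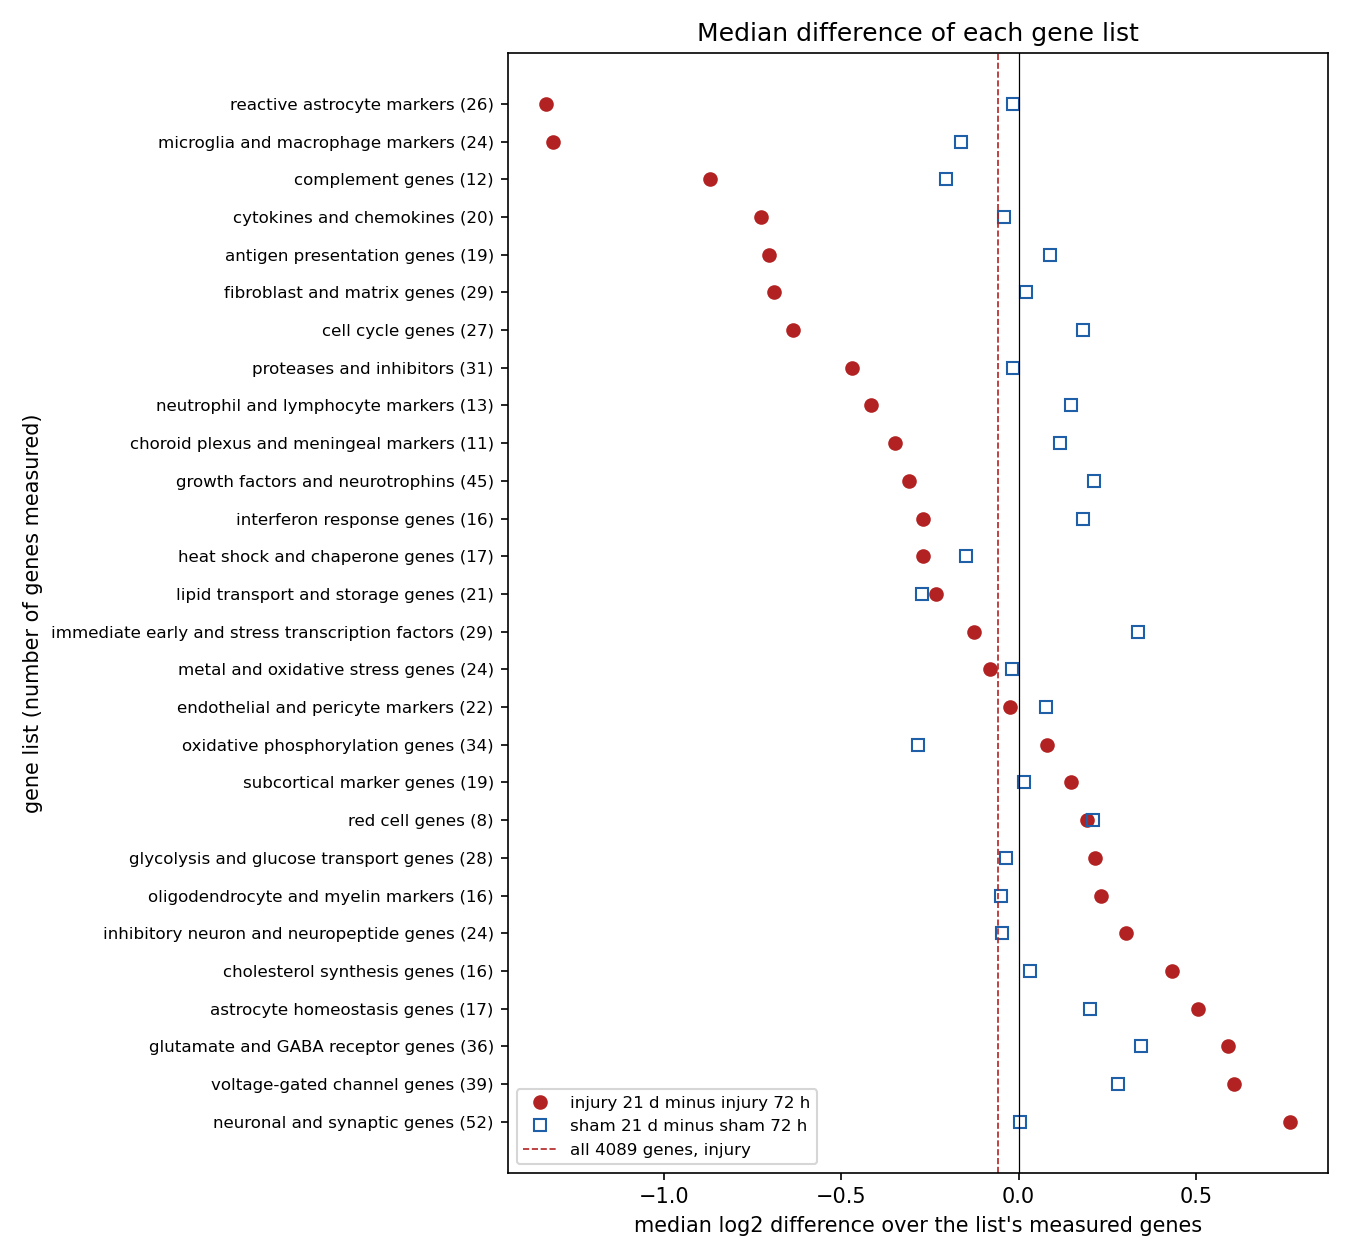
Median log2 difference of the measured genes of each of 28 gene lists (rows, number measured in brackets), for injury 21 d minus injury 72 h (red circles) and sham 21 d minus sham 72 h (blue squares). Reactive astrocyte markers (-1.33) and microglia and macrophage markers (-1.31) lie lowest and neuronal and synaptic genes (0.77) highest for injury, while the sham medians lie between -0.28 and 0.34.

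Lists without a call between the injury times were those of interferon response, oligodendrocytes and myelin, oxidative phosphorylation, glycolysis, red cells and choroid plexus. Myelin basic protein (Mbp) had 18772, 16420.0 and 18156 at 21 d and 15750.0, 12029 and 13513 at 72 h (0.38 ± 0.96), with every sham array above every injured array at 20215 to 21943. Mobp, another myelin gene, overlapped, with 14494, 7891 and 12093 at 21 d and 10605, 4109 and 4888 at 72 h (0.90 ± 0.38, adjusted p = 0.21). The interferon regulator Irf7 had 146, 162 and 135 at 21 d and 32.3, 73.5 and 89.1 at 72 h (1.30 ± 0.67, adjusted p = 0.318). Aqp4, the water channel of astrocyte endfeet, and the glutamate transporter Slc1a2 overlapped between the times, at 0.40 ± 0.51 and 0.11 ± 0.48. Aqp4 was higher at sham 21 d (772 and 799) than at sham 72 h (115 and 172). Ttr ranged from 309 to 32510.0 over the 10 arrays and overlapped between the times (-0.49 ± 1.85). The medians of the interferon, oligodendrocyte, oxidative phosphorylation and choroid plexus lists changed sign in at least 1 alternative.

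Several genes had more than 1 probe set. Of the named genes, 42 had several that passed the filter on low values and 24 of these were called on the one used. Another probe set was called too for 10 of the 24, and for 2 (Hspb1 and Tnfsf13) another had the opposite sign. No other probe set was called for Apoe, C1qb, Ctsl, Fn1, Gnaz, Kcna1, Kcnd3, Msmo1, Plin2, RT1-Da, Rasl11b, Tnfsf13, Top2a and Vamp1. For Plin2 the other differed by -1.96 (adjusted p = 0.0755). Of the 4089 genes tested, 25 passed the filter only through injury 72 h arrays, and 4 of these were among the 100 falls: Apobec1, Cdk1, Fam111a and Tgm4. In 3 falls all 21 d arrays sat at the floor.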

How the data were processed

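Each rat array carried 8799 probe sets. The authors deposited linear intensities, 1 for each probe set on each array, and the software that made these intensities is not given in the sources used here. Groups were read from the sample labels. Intensities were floored at the pooled 10th percentile (32.3) and taken as log2. The 59 control probe sets were left out, and a probe set had to exceed the pooled 40th percentile (203) on at least 3 arrays. Symbols came from GEO's platform annotation: 7006 probe sets had 1 symbol, of which 6985 matched a RefSeq gene ID with no symbol changed, 308 had several and 1426 none. A gene was represented by its probe set with the highest mean, which left 4089 of 4736 genes.

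One linear model with a mean for each of 13 rat groups was fitted over all 39 rat arrays using limma 3.58.1 (R 4.3.3, eBayes with trend, 26 residual degrees of freedom). P-values were adjusted by Benjamini-Hochberg over all genes tested within a comparison and measure the spread between arrays of single rats. Other probe sets of a gene and probe sets without a single symbol were judged in a separate fit of the same model. It took in all 7158 probe sets passing the filter, with adjustment over these, and it also gave the counts of genes with several probe sets. The number of arrays limits the precision. Log2 differences of genes near the floor understate the change.

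Named genes were the 12 largest rises and falls among called genes of at least 2-fold with no overlap, up to 4 called members per list (or 2 with the largest difference where none was called), the genes called in the difference of the injury effects, and a set of injury genes always given. The members and the 28 gene lists were chosen with earlier results of these data known. Further called list members were named after their values were seen. Replicate numbers were not used as pairs: same-numbered arrays of injury 21 d and injury 72 h deviated from their group means with correlations of -0.16, -0.03 and -0.08. Alternatives were quantile normalization, median centring, all genes unfiltered, a higher floor (25th percentile), averaged probe sets, only the 10 arrays of the 4 groups, the fit without the 4 arrays standing apart, a replicate block and each array left out in turn. A covariate of the Gapdh 3′ to 5′ ratio and a fit with only replicate 1 of injury 72 h were chosen after seeing the data. Plots used matplotlib 3.10.9 (Python 3.11.15).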

Additional observations from a re-analysis of the deposited data

Results flagged for a closer look

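For 7 genes the injury effect at 21 d differed from the injury effect at 72 h by the test of the difference itself (limma, Benjamini-Hochberg adjusted p below 0.05). The effect was lower at 21 d than at 72 h, with a log2 difference of -6.54 for Spp1, -2.80 for Lyz2, -3.29 for Top2a, -3.30 for Hmox1, -3.76 for Lgals3 and -3.54 for Apobec1. Apobec1 entered the test only through its injury 72 h arrays, and with no filter on low values its adjusted p was 0.00641. For Lsamp it was higher, at 4.56. In the first 6 genes the 4 sham arrays were below every injury 72 h array. In Lsamp the sham 21 d arrays (79.5 and 73.9) were below the sham 72 h arrays (306 and 490), while the injury 21 d arrays (381, 654 and 371) were above the injury 72 h arrays (82.0, 65.8 and 170). Lsamp missed the threshold with no filter (adjusted p = 0.0568), the higher floor (0.0534) and the Gapdh covariate (0.0559). Top2a missed it with probe sets averaged (-2.02, adjusted p = 0.460). Only Spp1 and Lyz2 stayed called under quantile normalization and median centring, and only Spp1 with any 1 sham array left out.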

How the results depend on the processing

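Of the 65 called genes named by rule, 14 were called under all 16 alternatives (Apobec1, Camk2n2, Fabp5, Grn, Hmox1, Kcnd3, Lcn2, Lgals3, Lyz2, Plin2, S100a10, Spp1, Vamp1 and Vim), 25 under all but 1 to 3, and 26 missed the threshold in 4 or more. The falls among those 26 were Aurkb, C3ar1, Fabp7, Fn1, Gal, Il18, Nqo1, Prdx1, RT1-Da, Timp2 and Tnfsf13. The rises among them were Apoe, Cav1, Dlgap3, Gabra4, Homer1, Itpka, Kcna1, Kcns1, Lsamp, Msmo1, Mxd4, Pde1b, Rasl11b, Vsnl1 and Ythdf3. Of the 31 named genes not called, 11 were called in at least 1 alternative. For injury 21 d minus injury 72 h (159 calls), quantile normalization, median centring, no filter, the higher floor, averaged probe sets and the Gapdh covariate gave 130 to 199 calls. Only the 10 arrays gave 297, without the 4 arrays standing apart there were 538, only replicate 1 of injury 72 h gave 50, and leaving out 1 array gave 64 to 293. The share of calls that were higher at 21 d was 37.1%, and 47.6% without the 4 arrays. For the difference of the injury effects (7 calls), quantile normalization gave 2, median centring 2, the 10 arrays 4, without the 4 arrays 28, only replicate 1 of injury 72 h 0, and leaving out 1 array 1 to 17. For injury 72 h minus sham 72 h (113 calls), the values were 61 with quantile normalization, 67 with median centring, 377 without the 4 arrays, 8 with only replicate 1 of injury 72 h and 18 to 326 with 1 array left out. For sham 21 d minus sham 72 h (0 calls), there were 3 without the 4 arrays and 0 to 1 with 1 array left out. Injury 21 d minus sham 21 d gave 0 calls in each setting. Over the 16 alternatives of injury 21 d minus injury 72 h the list counts ranged from 0 to 9 for cell cycle genes (7 called), 2 to 15 for microglia and macrophage markers (9), 3 to 15 for reactive astrocyte markers (9), 0 to 10 for fibroblast and matrix genes (5), 1 to 10 for proteases and inhibitors (5), 1 to 6 for cytokines and chemokines (5), 2 to 9 for lipid transport and storage genes (5), 1 to 6 for antigen presentation genes (3), 1 to 5 for metal and oxidative stress genes (3), 0 to 3 for complement genes (2), 1 to 29 for neuronal and synaptic genes (8), 2 to 9 for glutamate and GABA receptor genes (4) and 1 to 10 for voltage-gated channel genes (2). Apoe reversed to -0.22 under quantile normalization, where its other probe set had the higher mean and was used. The other causes were not tested. Whether replicate numbers mark a pairing or a shared batch is not settled here. With the replicate block 236 genes were called, the 159 among them. By deviation from the group mean, no injury 21 d array correlated best with the injury 72 h array of its number. Correlations within groups this small cannot exclude a batch shared by number. Differences among values at the floor of 32.3 cannot be resolved.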

Other observations

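Energy metabolism genes showed no call between the injury times. Of 34 oxidative phosphorylation genes and 28 glycolysis and glucose transport genes, none passed, with median differences of 0.08 and 0.22, against -0.28 and -0.03 between the shams. The cytochrome oxidase subunit Cox6c had 1215, 1451 and 1122 at injury 21 d and 1106, 293 and 544 at injury 72 h (1.16 ± 0.44, adjusted p = 0.149), with no overlap. Another Cox6c probe set differed by -0.70. The glycolytic regulator Pfkfb3 had 423, 457 and 282 at injury 21 d and 70.4, 324 and 318 at injury 72 h, which overlapped (0.97 ± 0.60, adjusted p = 0.43). Among regulators outside the lists, the Myc antagonist Mxd4 rose, with 354, 586 and 522 at injury 21 d and 101, 86.7 and 89.4 at injury 72 h (2.37 ± 0.60, adjusted p = 0.019). So did Ythdf3, a reader of methylated adenosine in mRNA, with 437, 136 and 221 at injury 21 d and 32.3, 65.1 and 52.9 at injury 72 h (2.29 ± 0.62, adjusted p = 0.0269). With the floor at the 25th percentile Ythdf3 was not called (1.33, adjusted p = 0.140). Exoc8, a subunit of the vesicle-tethering exocyst, had 191, 194 and 283 at injury 21 d and 36.3, 43.1 and 57.1 at injury 72 h (2.29 ± 0.53, adjusted p = 0.00954). In these 3 rises the times did not overlap, beside sham differences of 1.24 ± 0.74, 1.61 ± 0.76 and 1.19 ± 0.65, none of them called.

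Probe sets without a single gene symbol were also tested. Of 1062 with no symbol in the annotation, 14 were higher and 13 lower at injury 21 d than at injury 72 h. Of 271 with several symbols, 1 was higher and 13 were lower.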
